A study of Mus musculus with 6 samples.

Results

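Antisense RNAs are noncoding transcripts annotated to run against a protein-coding gene, and 233 of them were expressed in the nuclei of HL-1 cells. HL-1 is an immortalised mouse cardiomyocyte line of atrial origin, and all cultures were kept in Claycomb medium with serum, glutamine and norepinephrine, with no treatment or genotype that differed between libraries. Nuclei were split into a chromatin pellet and a soluble extract, and each of these fractions gave 3 libraries. The authors pooled the 3 libraries of a fraction into 1 FPKM value per locus (fragments scaled to transcript length and library size), so every RNA has 1 pellet value and 1 soluble value. The 233 were chosen by these values, as the RNAs of the antisense type whose pellet and soluble FPKM averaged 0.5 or more, out of 1730 antisense identifiers and 28660 loci in all. Of the 236 that passed this minimum, 3 were left out by name (Airn, Snhg9 and Gm21747), and 1494 lay below it. Because the reported FPKM values also chose the RNAs, and because no replicate spread can be computed, every difference between fractions is a description of 2 pooled values, with no test.

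An antisense RNA can start inside its partner gene and run through it, or start beside the partner's own start and run away from it, in which case both transcripts share one promoter region and are called head-to-head. Many such RNAs are weakly expressed, and several are known to act on or near chromatin at the locus that makes them, while others are exported like messenger RNAs. In the heart the best-known case is Mhrt, a transcript from the locus of the myosin heavy chain genes that is known in mice to bind a chromatin remodelling factor.

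The start regions of 5 head-to-head antisense RNAs are printed because they carry the contrast described further on: 2 of the RNAs lay further towards the pellet than the gene they share a start region with, and 3 lay further towards the soluble extract than it. They were chosen after their values were seen. Each runs 5′ to 3′ on the strand of the antisense RNA, from the base next to the start of the partner gene. Lower case marks the bases between both starts, and the capitals mark the first 50 bases of the antisense RNA. The sequences are those of RefSeq on GRCm38.p6, the same assembly as mm10. Junos lies at chr4:95052223-95052366 on the + strand and starts 95 bases from Jun. Gm17224 lies at chr1:172206805-172207032 on the + strand and starts 179 bases from Pea15a. 2900009J06Rik lies at chr1:127774005-127774163 on the - strand and starts 110 bases from Ccnt2. 2810001G20Rik lies at chr11:64079473-64079533 on the + strand and starts 12 bases from Cox10. Gm7467 lies at chr5:76304793-76304925 on the + strand and starts 84 bases from Clock.
Junos: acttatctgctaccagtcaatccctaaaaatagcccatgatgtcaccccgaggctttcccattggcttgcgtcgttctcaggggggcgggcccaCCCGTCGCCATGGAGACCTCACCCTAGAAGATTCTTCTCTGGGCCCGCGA
Gm17224: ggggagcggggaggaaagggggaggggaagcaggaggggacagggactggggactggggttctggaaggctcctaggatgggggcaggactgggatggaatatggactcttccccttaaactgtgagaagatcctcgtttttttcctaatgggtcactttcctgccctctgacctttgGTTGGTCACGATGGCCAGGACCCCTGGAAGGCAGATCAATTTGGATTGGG
2900009J06Rik: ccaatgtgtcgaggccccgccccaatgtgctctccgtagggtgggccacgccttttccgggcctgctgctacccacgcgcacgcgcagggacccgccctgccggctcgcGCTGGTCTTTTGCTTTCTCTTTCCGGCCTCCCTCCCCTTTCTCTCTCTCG
2810001G20Rik: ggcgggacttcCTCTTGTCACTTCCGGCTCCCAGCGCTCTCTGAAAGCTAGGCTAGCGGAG
Gm7467: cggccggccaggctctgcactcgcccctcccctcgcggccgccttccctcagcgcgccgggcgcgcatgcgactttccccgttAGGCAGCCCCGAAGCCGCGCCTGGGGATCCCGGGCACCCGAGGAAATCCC

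Another 3 start regions belong to antisense RNAs at genes of the contractile apparatus, and they are printed from 250 bases before to 50 bases after the RNA's start. Here the capitals mark matches, on either strand, to the T-box core GGTGTG or to the GATA core AGATAA or TGATAA, motifs of factor families that act in atrial cells. Mhrt lies at chr14:54968537-54968836 on the + strand, C130080G10Rik at chr2:114054146-114054445 on the + strand and Gm11665 at chr11:104562149-104562448 on the - strand.
Mhrt: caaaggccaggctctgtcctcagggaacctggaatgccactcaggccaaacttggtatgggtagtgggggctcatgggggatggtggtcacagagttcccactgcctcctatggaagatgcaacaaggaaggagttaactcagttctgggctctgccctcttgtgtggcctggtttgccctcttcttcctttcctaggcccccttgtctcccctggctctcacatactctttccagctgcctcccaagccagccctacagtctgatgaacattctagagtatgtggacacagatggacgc
C130080G10Rik: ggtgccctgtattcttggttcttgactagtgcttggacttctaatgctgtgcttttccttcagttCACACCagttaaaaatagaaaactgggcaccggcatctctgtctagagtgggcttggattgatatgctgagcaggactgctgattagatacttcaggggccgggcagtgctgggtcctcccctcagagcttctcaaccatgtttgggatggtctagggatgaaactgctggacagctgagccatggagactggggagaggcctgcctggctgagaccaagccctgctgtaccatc
Gm11665: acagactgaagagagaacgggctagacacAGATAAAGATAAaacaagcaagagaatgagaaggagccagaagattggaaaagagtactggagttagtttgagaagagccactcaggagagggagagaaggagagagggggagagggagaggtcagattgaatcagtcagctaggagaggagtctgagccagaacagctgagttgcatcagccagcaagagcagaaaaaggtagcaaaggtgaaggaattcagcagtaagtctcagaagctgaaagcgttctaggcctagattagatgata

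The window of Mhrt held neither motif, that of C130080G10Rik held 1 T-box core and that of Gm11665 held 2 GATA cores next to each other. Over all 32851 RefSeq start regions of the same length, 19.0% held a T-box core and 18.6% a GATA core, so such a match is common. In the full 300-base windows of the head-to-head RNAs, 2900009J06Rik held 4 matches to the Sp1 motif GGGCGG and 2 to CCAAT, and Gm7467 held neither. GGGCGG occurred in 35.7% of all start regions and CCAAT in 37.4%. None of the 8 windows held TATAAA, which occurred in 13.6%. A match is a description of letters and not a measured binding site.

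The antisense RNAs were scarce. Their pellet values ran from 0.165 to 23.3 FPKM with a median of 1.02, and their soluble values from 0.0866 to 71.8 FPKM with a median of 1.18. Together they made up 0.0495% of the summed FPKM of all loci in the pellet and 0.0667% in the soluble extract. The mean of both fractions reached 10 FPKM for 6 of them. Rab26os alone held 2.99% of the antisense sum in the pellet and 11.3% of it in the soluble extract. RNAs were found on all autosomes and on X, with the most on chromosome 11 (25 RNAs), 7 (21) and 3 (19). RefSeq held a gene for 135 of the 233, of which 129 are listed there as lncRNA and 4 as protein-coding (Toporsos, Inafm2, Fcor and Gm11837), so the antisense type of the table is not shared by every annotation. The library kit keeps strand, per the labels' protocols, but no source used here says whether the counting used it, and without it reads from an antisense RNA and its partner cannot be told apart. Each value is an average over many cells, and fewer cells with an RNA and less of it per cell cannot be told apart.

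Just inside the minimum stood C030010L15Rik, with 0.502 FPKM in the pellet and 0.506 FPKM in the soluble extract, RP23-286M3.5 with 0.624 and 0.390 FPKM, and Gm15489 with 0.681 and 0.337 FPKM in the same order of fractions. Just outside it stood Gm29491 with 0.602 FPKM in the pellet and 0.381 FPKM in the soluble extract, RP23-414K1.8 with 0.225 and 0.741 FPKM, and A230072E10Rik with 0.644 and 0.320 FPKM. Of these 6, RP23-414K1.8 had a soluble value well above its pellet value in plain FPKM.

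Between the fractions, values were set on the scale of the synthetic spike-in RNAs that had been added to each fraction: the log2 fold of an RNA is the log2 of pellet FPKM times 3.37 over soluble FPKM, and it is positive where the RNA lay towards the pellet. On the plain FPKM scale every log2 fold is lower by 1.75. Spike-ins that averaged 0.5 FPKM or more scattered about the common factor with an SD of 0.12 log2 (n = 47 spike-ins, range -0.28 to 0.23), and those between 0.05 and 0.5 FPKM with an SD of 0.37 (n = 16). This is scatter between standards within pooled values and leaves out the spread between cultures. The cells carried the heart muscle markers, with 8 of 8 listed genes in the table at 0.5 FPKM or more and a sum of 585 FPKM in the pellet and 2762 FPKM in the soluble extract. Of the fibroblast markers 3 of 5 reached that level (sums of 88.3 and 347 FPKM in the same order). The highest single fibroblast value was 87.0 FPKM in the pellet and 340 FPKM in the soluble extract, so nearly all of each sum was 1 gene. Of the endothelial markers 2 of 5 reached it (2.38 and 6.96 FPKM), of the immune ones 1 of 4 (0.631 and 0.977 FPKM) and of the neuronal ones 1 of 3 (1.15 and 2.02 FPKM). Their part in the results was not tested.

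On the spike-in scale 135 of the 233 antisense RNAs were higher in the pellet by 2-fold or more, 13 were lower by as much, and 85 differed by less. Of all 13917 loci past the same minimum, 31.9% were higher and 10.5% lower by this measure, and of the 11397 protein-coding genes among them 24.0% and 10.6%. The median log2 fold was 1.28 for the antisense RNAs (quartiles 0.27 and 2.77), 0.41 for all loci and 0.26 for protein-coding genes. On the plain FPKM scale the direction of the median turned for all of them: 61 antisense RNAs were at least 2-fold higher and 87 lower (median -0.47), while 9.66% of all loci were higher and 61.2% lower (median -1.34). The difference between the antisense median and that of all loci does not depend on the scale, whereas calling an RNA enriched in the pellet does. Most of these loci are protein-coding, and the other noncoding loci lay further towards the pellet than the antisense RNAs, as given by level further on.

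The minimum itself shaped these counts. Of the 233, 150 reached 0.5 FPKM in both fractions, and of those 90 were higher in the pellet by 2-fold or more and 6 lower (median log2 fold 1.26). Another 43 reached it in the pellet alone and 40 in the soluble extract alone, and on the plain FPKM scale these had to differ in that direction. On the spike-in scale all 43 of the first were higher by 2-fold or more, which the minimum and the factor of 3.37 fixed in advance. These 43 are part of the 135 counted as higher. Of the 40 others 2 were higher and 7 lower (median -0.03), and the same rule kept their log2 folds below 1.75. Over all 1725 antisense identifiers at any level, without the names left out, 1290 were higher in the pellet by 2-fold or more and 62 lower. The share of all loci at any level was not computed. The 31.9% given above holds for loci past the minimum only, so these counts cannot be set against it.

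**Figure D1:**
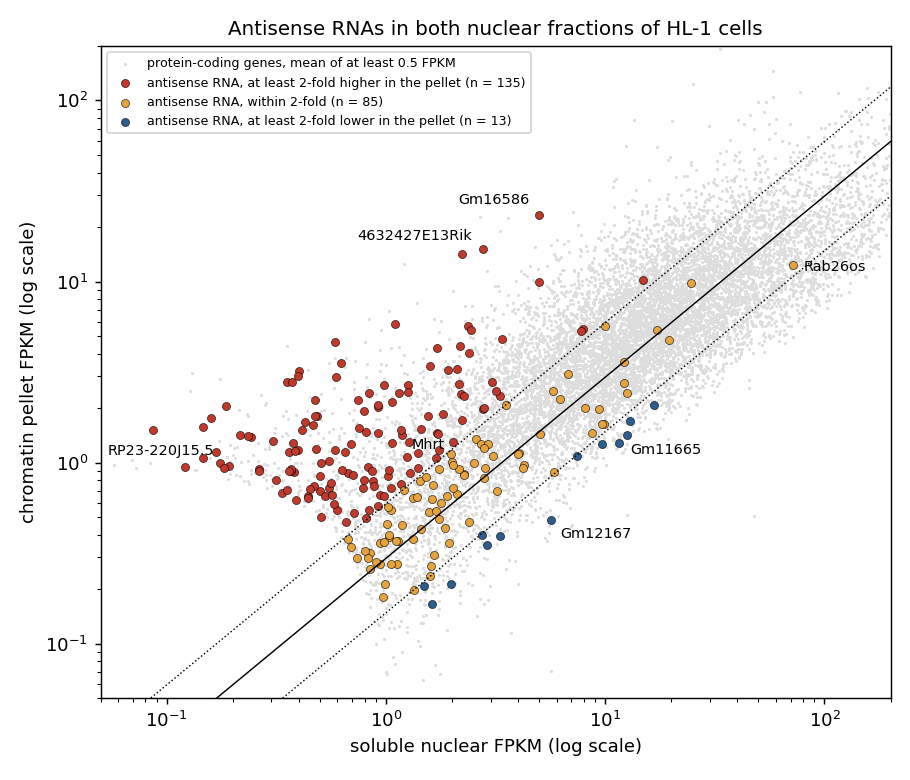
Pellet FPKM (vertical, log scale) against soluble FPKM (horizontal, log scale) for the 233 antisense RNAs, coloured by fold on the spike-in scale, over the protein-coding genes in grey. The solid line marks equal amounts on that scale and the dotted lines 2-fold either way; 135 antisense RNAs lie above the upper dotted line and 13 below the lower one; the axes stop short of the most abundant protein-coding genes.

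The lean towards the pellet was larger among the scarce antisense RNAs than among the more abundant ones. Between 0.5 and 1 FPKM, 67 of 100 antisense RNAs were higher in the pellet by 2-fold or more and 2 lower (median log2 fold 1.77), against 279 and 52 of 700 protein-coding genes with a median of 0.67. From 1 to 2 FPKM the antisense median was 1.19 (n = 73) and the protein-coding median 0.55, and from 2 to 5 FPKM they were 1.28 (n = 35) and 0.54. From 5 to 10 FPKM the antisense RNAs split evenly, 5 of 19 being higher and 5 lower (median -0.49), where 627 of 2325 protein-coding genes were higher and 94 lower (median 0.40). Of the 6 antisense RNAs at 10 FPKM or more, 2 were higher and 0 lower, with medians of 0.26 for them and -0.03 for 5464 protein-coding genes. The other tested loci, neither antisense RNAs of this set nor protein-coding, had higher medians than the antisense RNAs in every class: 2.57 (n = 651), 2.41 (n = 477), 2.01 (n = 409), 2.34 (n = 197) and 2.56 (n = 553) from the lowest level to the highest. Of them 68.2% were higher by 2-fold or more between 0.5 and 1 FPKM and 69.5% between 5 and 10 FPKM. The 13 RNAs on the soluble side had means of 0.850 to 9.42 FPKM with a median of 3.08.

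**Figure D2:**
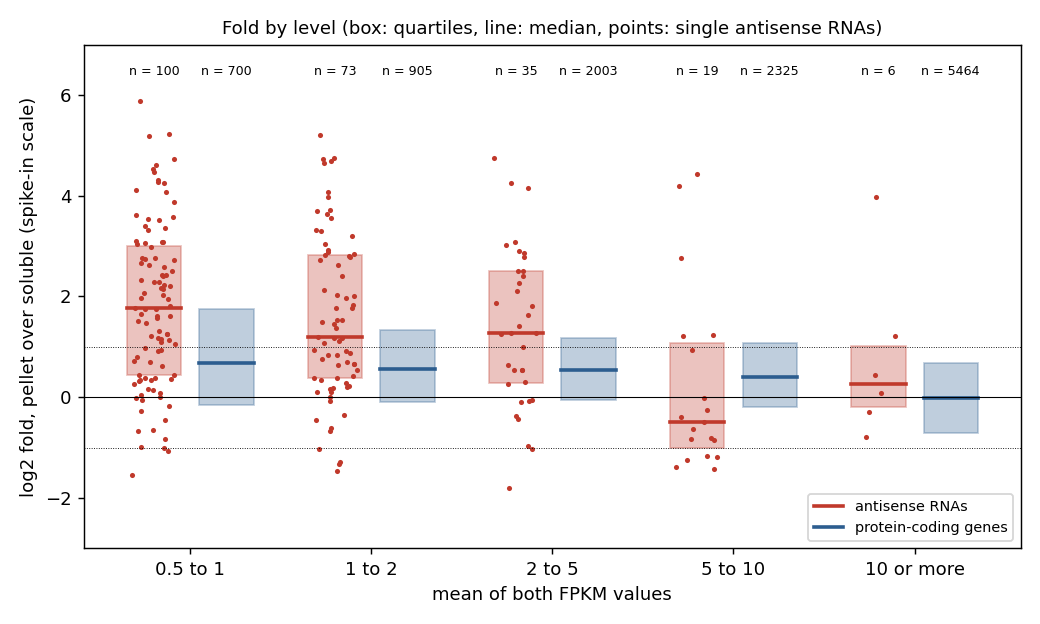
Log2 fold of pellet over soluble on the spike-in scale (vertical) by the mean of both FPKM values (horizontal), for antisense RNAs (red, points are single RNAs) and protein-coding genes (blue). Boxes span the quartiles and lines mark the medians; the antisense median is 1.77 in the lowest class and -0.49 between 5 and 10 FPKM.

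Among antisense RNAs that averaged 1 FPKM or more, the largest log2 fold belonged to RP23-373G12.5 in the locus of Ttc14 and Ccdc39, with 2.04 FPKM in the pellet and 0.187 FPKM in the soluble extract (log2 fold 5.21). Gm17024, in the locus of Ifrd1, was the most abundant of the 8 largest, with 14.2 FPKM in the pellet and 2.22 FPKM in the soluble extract (4.43). Both had pellet values above their soluble values before any scaling. The other 6 were Gm14286, Gm10435, Prox2os, RP24-259P13.2, RP24-79I19.5 and 1700027A15Rik, with log2 folds of 4.76 down to 4.25. RP23-373G12.5, Gm14286, Prox2os, RP24-259P13.2 and RP24-79I19.5 had soluble values below 0.5 FPKM, from 0.187 to 0.403 FPKM. They reached that level through the pellet alone, and in that range the spike-ins scattered with an SD of 0.37 log2.

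The smallest log2 fold belonged to Gm12167, with 0.482 FPKM in the pellet and 5.67 FPKM in the soluble extract (-1.80). RP24-430H1.5, in the locus of Dip2b, had 1.42 FPKM in the pellet and 12.5 FPKM in the soluble extract (-1.39). Gm15543, in the locus of Lrmp and Casc1, had 2.08 FPKM in the pellet and 16.8 FPKM in the soluble extract (-1.26). Unlike the RNAs with large folds, these had soluble values several times their pellet values on the plain scale too. The other 5 of the 8 smallest were RP23-60P18.10, Gm11665, RP23-454I20.1, Gm16062 and Gm11716, between -1.46 and -1.19. Gm12167, RP23-60P18.10, RP23-454I20.1 and Gm16062 had pellet values below 0.5 FPKM and reached that level through the soluble extract alone. With a pseudocount of 0.1 FPKM, RP23-60P18.10 and Gm16062 came within 2-fold, both at -0.98.

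The most abundant antisense RNAs did not share a direction. Rab26os had 12.3 FPKM in the pellet and 71.8 FPKM in the soluble extract (log2 fold -0.79), and Brip1os had 9.84 and 24.5 FPKM in the same order (0.44). Gm16586, in the locus of Hnrnpu, had 23.3 FPKM in the pellet and 5.003 FPKM in the soluble extract (3.97), and 4632427E13Rik had 15.03 and 2.775 FPKM in the same order (4.19). These last 2 were the highest antisense RNAs in the pellet, while Rab26os was the highest in the soluble extract. Rab10os (1.21), Inafm2 (-0.29), Gt(ROSA)26Sor, the transcript of the locus widely used to insert transgenes (0.07), and Gm15543 complete the 8 with the highest mean.

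A protein-coding gene with the same locus coordinates in the table was present for 196 of the 233 antisense RNAs. They held 119 that were higher by 2-fold or more and 10 lower (median 1.43), and of the 37 without such a gene 16 were higher and 3 lower (0.70). A shared locus can hold several genes that were assembled together, on either strand. Where the partner also had a mean of at least 0.5 FPKM, 238 pairs could be compared, made of 172 antisense RNAs and 225 sense genes. Another 56 pairs had a sense gene below that level.

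Within a pair the antisense RNA more often lay further towards the pellet than its sense gene than the reverse. Its log2 fold was at least 1 above that of the sense gene in 123 of 238 pairs (51.7%) and at least 1 below in 35 (14.7%), with a median difference of 1.06 (quartiles -0.28 and 2.33). This difference does not depend on the scale. The pairs include RNAs that reached 0.5 FPKM in 1 fraction only, such as Junos and Prox2os in the pellet. For these the minimum kept the log2 fold above 1.75 (pellet alone) or below 1.75 (soluble extract alone). Pair counts without these RNAs were not computed, so the part of the minimum in the difference is unknown. The strand of one or both partners was unknown in 152 of these pairs, and in 12 both were on the same strand. With sense genes taken from RefSeq strands instead, 36 of 94 pairs were above and 18 below, and the median difference was 0.54. The direction is not particular to antisense RNAs: among 1283 pairs of another noncoding locus with a protein-coding gene of the same locus, the noncoding one was at least 2-fold above in 69.1% and at least 2-fold below in 11.2%, with a median of 2.29. Among 1975 pairs of 2 protein-coding genes at 1 locus, 51.0% were at least 2-fold apart either way. Counting each antisense RNA once, with its highest sense gene, gave 98 of 172 above and 22 below (median 1.31). The folds of the partners were not aligned: Spearman's rho was 0.10 over the 238 pairs and 0.03 over the 172, as a description of pairs that share loci.

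In 95 pairs the antisense RNA was at least 2-fold higher in the pellet and the sense gene was not, in 46 both were, in 28 only the sense gene was, and in 69 neither was. For comparison, 57.9% of all 233 antisense RNAs and 24.0% of tested protein-coding genes were at least 2-fold higher, and 10.6% of those genes were lower. Whether the pair counts depart from what these shares alone would give was not tested. In 7 pairs the partners stood on opposite sides, with the antisense RNA at least 2-fold higher and the sense gene at least 2-fold lower. H3f3aos, at the gene for the replacement histone H3.3, was among them, with 2.07 FPKM in the pellet and 0.921 FPKM in the soluble extract, against 19.4 and 185.7 FPKM for H3f3a in the same order. Gm29155 had 3.26 FPKM in the pellet and 1.92 FPKM in the soluble extract, against 11.9 and 166.6 FPKM for 1500015O10Rik. The other pairs of the 7 were Gm13054 with Nppa, Ccdc142os with Mrpl53, Gm20633 with Hist2h2aa2, RP23-278C10.9 with Tuba1b and RP23-286M3.5 with Pcolce. The sense genes of the first 2 pairs named had far higher values in the soluble extract than in the pellet in plain FPKM, and log2 folds of -1.51 and -2.05 on the spike-in scale.

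**Figure D3:**
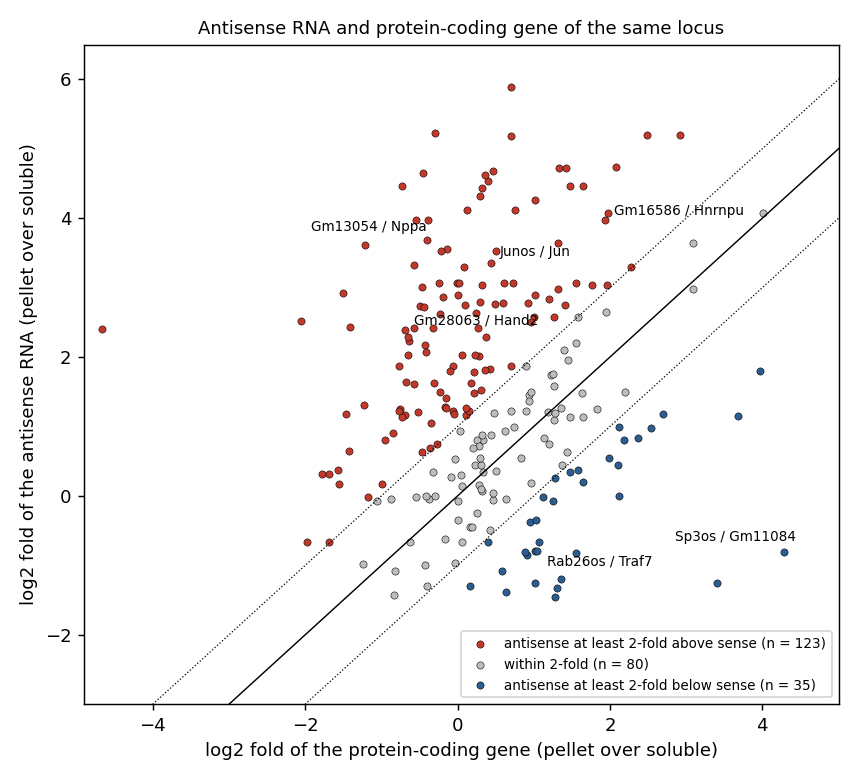
Log2 fold of the antisense RNA (vertical) against that of the protein-coding gene at the same locus (horizontal) for 238 pairs, both pellet over soluble on the spike-in scale. The solid line marks equal folds and the dotted lines a 2-fold difference; 123 pairs lie above the band and 35 below it, and the points do not follow the solid line.

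Levels within pairs were unequal. The antisense RNA stood at a median of 15.9% of its sense gene's FPKM in the pellet (quartiles 6.44% and 41.0%) and at 7.40% in the soluble extract (2.53% and 25.6%). It exceeded the sense gene in 30 pairs in the pellet and in 16 pairs in the soluble extract, and in 10 pairs in both. With sense genes of any level, which adds the pairs whose sense gene is below the minimum, it did so in 86 of 294 pairs in the pellet and in 69 in the soluble extract. Among pairs past the minimum, other noncoding loci exceeded their protein-coding partner in 37.3% of pairs in the pellet and in 25.2% in the soluble extract. Atcayos was the clearest case named after a partner past the minimum. It had 5.50 FPKM in the pellet and 7.94 FPKM in the soluble extract, against 0.700 and 2.13 FPKM for Atcay in the same order. Rab26, the gene Rab26os is named after, was below the minimum, with 0.284 and 0.582 FPKM against 12.3 and 71.8 FPKM for Rab26os. Rab26os exceeded Traf7, which codes for a ubiquitin ligase, only in the soluble extract, since Traf7 had 30.3 FPKM in the pellet and 49.7 FPKM there.

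In other pairs the sense gene lay further towards the pellet. Sp3os had 1.64 FPKM in the pellet and 9.69 FPKM in the soluble extract (log2 fold -0.81), while Sp3, a transcription factor that binds GC-rich promoters, had 15.46 and 28.1 FPKM in the same order (0.89). A further protein-coding gene of that locus, Gm11084, had 77.8 FPKM in the pellet and 13.5 FPKM in the soluble extract, which put Sp3os 5.09 log2 units below it. At the other end, among pairs in which both averaged 1 FPKM or more, RP24-79I19.5 lay 5.11 log2 units above Jam3, a junctional adhesion molecule, which had 8.35 FPKM in the pellet and 38.5 FPKM in the soluble extract.

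Position relative to the partner could be read for 112 antisense RNAs with a start in RefSeq, 48.1% of the 233, so what follows describes those and not the whole set. Head-to-head starts, within 1000 bases of an opposite-strand protein-coding start, were found for 54. Their distances ran from 9 to 912 bases with a median of 166, and 36 were within 300 bases. Another 37 overlapped an opposite-strand gene without sharing its start region. Of the head-to-head RNAs 20 were higher by 2-fold or more and 3 lower, and their log2 folds had a median of 0.49 (quartiles -0.27 and 1.71), near the 31.9% higher and the median of 0.41 of all tested loci. Of the overlapping RNAs 29 were higher and 3 lower, and the median was 2.20 (quartiles 1.21 and 3.21). The remaining 21 neither overlapped an opposite-strand protein-coding gene with a RefSeq start nor began within 1000 bases of such a start. Genes without a listed start were not considered, so this class is an absence in the annotation used. It includes Vax2os and 4933417O13Rik, which share the loci of Vax2 and Kcnq1. With 9 higher, 2 lower and a median of 0.38, these 21 resembled the head-to-head RNAs in their median. All RNAs of the 112 that were not head-to-head, 58 in number, gave 38 higher and 5 lower (median 1.68), and the 121 without a start gave 77 higher and 5 lower (median 1.62).

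The medians of overlapping and head-to-head RNAs differed in the same direction in each class of level. Between 0.5 and 1 FPKM the overlapping RNAs had a median log2 fold of 2.50 (n = 18, 17 at least 2-fold higher) and the head-to-head RNAs 0.93 (n = 22, 10 higher). From 1 to 2 FPKM the medians were 2.63 for overlapping RNAs (n = 9) and 0.84 for head-to-head RNAs (n = 17). At 2 FPKM or more they were 0.60 (n = 10) and -0.09 (n = 15) in the same order. The classes can hold RNAs that reached 0.5 FPKM in 1 fraction only, whose log2 folds the minimum limited to 1 side of 1.75. These were not counted by position, and their part in the medians was not tested. The same holds for the pairs by position given next. No test of the difference between overlapping and head-to-head RNAs is possible from pooled values.

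Set against the gene at the opposite start, head-to-head RNAs leaned neither way. In 53 such pairs with a measured partner the antisense RNA was at least 2-fold above in 15, at least 2-fold below in 12 and within 2-fold in 26, with a median difference of -0.04 (quartiles -0.83 and 1.08). Overlapping RNAs were at least 2-fold above the gene they overlap in 17 of 30 pairs and below in 3, with a median of 1.32. The genes at the opposite start were well expressed, with a median of 13.5 FPKM, and the pellet was higher by 2-fold or more for 14 of the 53 and lower for 1. The antisense RNA exceeded its partner in 2 of the 53 pairs in the pellet and in 1 in the soluble extract.

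**Figure D4:**
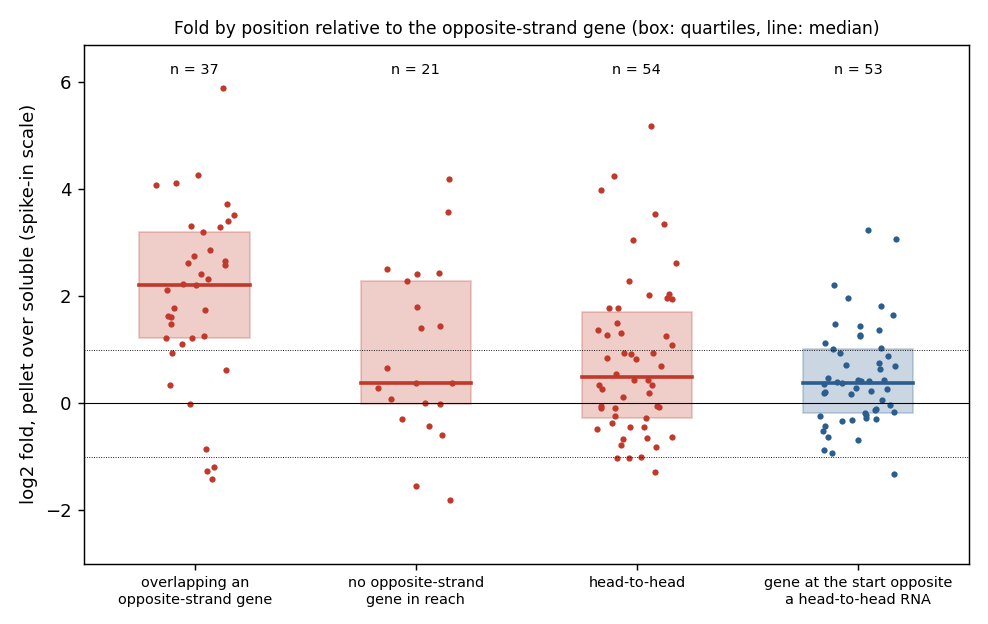
Log2 fold of pellet over soluble on the spike-in scale, by position relative to an opposite-strand protein-coding gene with a RefSeq start. Antisense RNAs that overlap such a gene, have none in reach or start head-to-head with one are red. Genes at the start opposite a head-to-head RNA are blue. Points are single RNAs or genes, boxes span the quartiles and lines mark medians; the overlapping RNAs have a median of 2.20, the head-to-head RNAs 0.49 and the genes opposite them 0.38.

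The RNAs whose start regions are printed above show how far apart head-to-head partners could stand. In Junos, Gm17224, 2900009J06Rik and Gm7467 the lower of both values was below 0.5 FPKM. Spike-ins between 0.05 and 0.5 FPKM scattered more, with an SD of 0.37 log2. These RNAs passed the minimum through the fraction in which they were higher. Junos had 1.16 FPKM in the pellet and 0.383 FPKM in the soluble extract (log2 fold 3.36), while Jun, an AP-1 transcription factor, had 4.77 and 11.9 FPKM in the same order (0.44). Gm17224 had 1.58 FPKM in the pellet and 0.147 FPKM in the soluble extract (5.18), against 8.75 and 36.9 FPKM for Pea15a, a regulator of ERK signalling (-0.32). At 2900009J06Rik the order was turned round. It had 0.198 FPKM in the pellet and 1.34 FPKM in the soluble extract (-1.0), while Ccnt2, the cyclin T2 that pairs with Cdk9 in transcription elongation, had 16.7 and 6.76 FPKM in the same order (3.06). The antisense RNA at the other cyclin T gene, 9330020H09Rik, had 0.388 FPKM in the pellet and 1.03 FPKM in the soluble extract (0.35), against 20.3 and 24.6 FPKM for Ccnt1 (1.48). In both cyclin T pairs the sense gene lay further towards the pellet than its head-to-head RNA.

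2810001G20Rik, which starts 12 bases from Cox10, an enzyme of heme A synthesis, had 1.46 FPKM in the pellet and 8.71 FPKM in the soluble extract (log2 fold -0.82), against 6.23 and 11.3 FPKM for Cox10 (0.89). Gm7467 had 0.275 FPKM in the pellet and 1.13 FPKM in the soluble extract (-0.28), against 13.3 and 22.3 FPKM for the circadian transcription factor Clock (1.01). Both antisense RNAs had soluble FPKM several times their pellet FPKM, and their partners did not.

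Of 31 listed cardiac transcription factors 22 passed the level minimum, of which 7 were higher in the pellet by 2-fold or more and 0 lower, where 31.9% of all tested loci and 24.0% of protein-coding genes were higher, and 3 of them had antisense RNAs at their locus. Gm28063 shares the coordinates of Hand2, a factor of heart and limb development, and had 3.28 FPKM in the pellet and 2.10 FPKM in the soluble extract (log2 fold 2.40), while Hand2 had 23.4 and 127.3 FPKM in the same order (-0.69). A830082K12Rik, head-to-head with Nr2f1, an orphan nuclear receptor, had 2.49 FPKM in the pellet and 5.77 FPKM in the soluble extract (0.54), against 2.91 and 10.0 FPKM for Nr2f1 (-0.03). The locus of the homeobox gene Meis1 held Gm16141 and Gm16140, whose log2 folds had opposite signs, that of Gm16140 within 2-fold. Gm16141 had 0.767 FPKM in the pellet and 0.562 FPKM in the soluble extract (2.20), and Gm16140 had 0.267 and 1.60 FPKM in the same order (-0.83), with Meis1 at 22.9 and 26.3 FPKM (1.55).

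Of 32 listed genes of contraction and ion handling 23 passed, of which 5 were higher and 7 lower in the pellet by 2-fold or more. Of all tested loci 31.9% were higher and 10.5% lower, and of protein-coding genes 24.0% and 10.6%. An antisense RNA was present at 5 listed genes. Mhrt had 1.51 FPKM in the pellet and 1.17 FPKM in the soluble extract (log2 fold 2.12). Its sense gene Myh7, the slow myosin heavy chain, was at 0.0991 FPKM in the pellet and 0.159 FPKM in the soluble extract, below the minimum, while the neighbouring Myh6 had 87.3 and 124.4 FPKM in the same order (1.24). Mhrt was thus present at more than its own partner in both fractions and far below the myosin gene next to it.

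Gm11665, antisense within Myl4, the atrial essential light chain, had 1.28 FPKM in the pellet and 11.6 FPKM in the soluble extract (log2 fold -1.42), and Myl4 had 61.0 and 367.2 FPKM in the same order (-0.84). Both lay towards the soluble extract. C130080G10Rik, which shares a locus with the cardiac actin gene Actc1, had 2.49 FPKM in the pellet and 3.17 FPKM in the soluble extract (1.41), against 88.8 and 331.9 FPKM for Actc1 (-0.15). Gm13054, at the gene for atrial natriuretic peptide, had 1.51 FPKM in the pellet and 0.416 FPKM in the soluble extract (3.61), while Nppa was itself low, with 0.208 and 1.63 FPKM in the same order (-1.21). 4933417O13Rik had 0.454 FPKM in the pellet and 1.18 FPKM in the soluble extract (0.38), against 2.66 and 3.01 FPKM for the potassium channel gene Kcnq1 (1.58).

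Of 22 listed genes of RNA processing 22 passed, with 10 higher in the pellet and 0 lower. For comparison, 31.9% of all tested loci and 24.0% of protein-coding genes were higher. An antisense RNA was present at 2 of the 22. Gm16586 shares its locus with Hnrnpu, which codes for a nuclear scaffold protein that binds RNA, and lay 2.04 log2 units above it, since Hnrnpu had 54.1 FPKM in the pellet and 47.8 FPKM in the soluble extract (log2 fold 1.93). Of the other genes of that locus Gm28062 had 75.1 and 370.3 FPKM and Cox20 8.39 and 37.1 FPKM, pellet first. Gm11508 had 0.358 FPKM in the pellet and 0.944 FPKM in the soluble extract (0.36), close to the splicing factor gene Srsf1 at 83.7 and 198.4 FPKM (0.51). All 30 listed genes of chromatin and transcription machinery passed, with 10 higher and 0 lower. The higher share is close to the 31.9% of all tested loci. An antisense RNA was present at the locus of 0 of them. Such RNAs were rare at protein-coding genes at large, where 225 of 11397 tested ones were in a same-locus pair. The 0 of 30 is therefore not read as a trait of this list. The 3 cardiac transcription factors, 5 contraction genes and 2 RNA processing genes with such an RNA were not tested against that share. Those 5 include Myh7, which was below the minimum.

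Of the 233, 20 carry the name of a gene at their own locus. The pellet value was higher by 2-fold or more for 15 of them and lower for 0. Shares for comparison were 57.9% higher among all 233 and 31.9% among all tested loci. The median log2 fold of these 20 was 1.38. Against the gene they are named after, 11 of 19 pairs had the antisense RNA at least 2-fold above and 3 had it at least 2-fold below, with a median difference of 1.39. Nr6a1os was the most even pair, with 2.96 FPKM in the pellet and 0.593 FPKM in the soluble extract (4.07), against 2.93 and 0.615 FPKM for Nr6a1, a nuclear receptor of germ cells and embryos (4.01). Prox2os, with 2.78 FPKM in the pellet and 0.355 FPKM in the soluble extract (4.72), exceeded the homeobox gene Prox2 in the pellet only, where Prox2 had 0.871 FPKM against 1.17 FPKM in the soluble extract. Rab10os had 10.2 FPKM in the pellet and 14.8 FPKM in the soluble extract (1.21), against 19.0 and 91.4 FPKM for Rab10, a GTPase of vesicle traffic (-0.51). The pairs of Mypopos, Vax2os, Mccc1os and N4bp2os also had the antisense RNA further towards the pellet, by 3.16, 2.73, 1.73 and 1.63 log2 units. Those of Zfp335os (-0.09) and Man2c1os (-0.70) were within 2-fold, and that of Ccdc142os with Ccdc142 was turned round (-1.53).

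**Figure D5:**
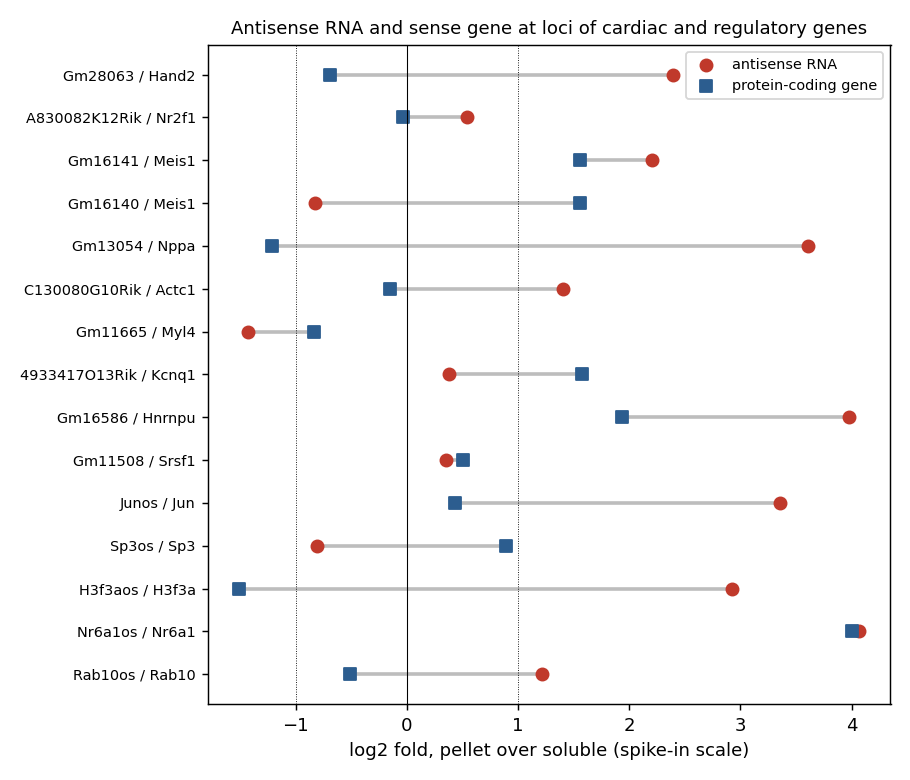
Log2 fold of pellet over soluble on the spike-in scale (horizontal) for the antisense RNA (circle) and the protein-coding gene of the same locus (square) in 15 pairs, the upper 10 from the lists of cardiac and RNA processing genes and the lower 5 chosen after their values were seen. The grey bar joins partners; it is longest at Nppa and H3f3a and shortest at Nr6a1.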

How the data were processed

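Nuclear RNA of HL-1 cells was sequenced from 3 chromatin pellet and 3 soluble nuclear libraries after ribosomal RNA depletion, with a kit that keeps strand and with ERCC spike-ins, per the labels' protocols. The submitters' processing notes name the build mm10 and the tools Cuffdiff, Cufflinks, HISAT2, bedtools and SAMtools, with no settings. The FPKM values were deposited by the authors as 1 value per fraction. Per the file headers it also holds a rescaled pellet signal and a total signal, the ratio of rescaled pellet to soluble as chromatin enrichment, and the log10 of total and ratio. The deposited signal was compared with pellet FPKM times the spike-in slope and departed from it by at most 0.389%.

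Of 30687 lines in the table, 1945 were repeats of an identifier and were dropped. In 1889 lines the name stood in the type column. No value was 0 and no pseudocount was added. Table starts count from 0, and 1 was added. The spike-in factor is the least-squares slope of soluble on pellet FPKM over 82 spike-ins. Antisense RNAs were joined to RefSeq (GRCm38.p6) by symbol or synonym where the RefSeq span overlapped the locus. A synonym that belongs to another Ensembl gene was not used, and starts and strands came from the RefSeq start regions. Gm28063 was therefore not matched. Depth is unknown, because FPKM keeps no counts, and the pooled values give no replicate spread, so the planned limma fit was not made and no p-value is given.

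The antisense RNAs, the gene lists and the rules were chosen with earlier results of these data known. Named are the 8 largest and 8 smallest folds and the most extreme 6 pairs each way among RNAs of at least 1 FPKM, the 8 highest means, RNAs named after their sense gene, RNAs at listed genes and the 3 on either side of the minimum. Others are said to be chosen after their values were seen, and this holds for the partners 9330020H09Rik, Gm20633, RP23-278C10.9 and RP23-286M3.5 too. Scripts were tested on simulated data. Python 3.11.15, pandas 2.3.3, numpy 2.4.6 and scipy 1.17.1 were used.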

Additional observations from a re-analysis of the deposited data

How the results depend on the processing

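No paired analysis was possible because each fraction has 1 pooled value, and leaving out single replicates was not run for the same reason. Another estimate of the spike-in factor, 1 antisense RNA per locus and leaving out loci with small RNA genes kept all 10 results near their reported values. On the plain FPKM scale 61 RNAs were higher, 87 lower, and medians turned to -0.47 for all, -1.26 for head-to-head and -0.072 for the others. Rab10os (-0.54), Zfp335os (-0.49), Atcayos (-0.53), Man2c1os (-0.26), Ccdc142os (-0.58) and C130080G10Rik (-0.35) turned as well. A pseudocount of 0.1 FPKM left 7 RNAs lower and a head-to-head median of 0.63.

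With a minimum of 0.1 FPKM 372 RNAs were higher and 20 lower (median 1.64, head-to-head 0.94), 348 pairs were above and 104 below, and the antisense level exceeded the sense level in 60 pairs in the pellet and 65 in the soluble extract. With 1 FPKM 68 RNAs were higher (median 1.11, head-to-head 0.23, others 1.16), 57 pairs were above and 21 below (median difference 0.71), and the level counts were 16 and 9. With 5 FPKM 7 were higher and 5 lower, the medians turned to -0.29, -0.56 for head-to-head and -0.29 for the others, 9 pairs were above and 6 below (0.033), and the level counts were 3 and 2. At 4-fold 0 RNAs were lower, 72 pairs above and 12 below.

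Sense genes from RefSeq strands gave 36 of 94 pairs above and 18 below (median 0.54), with level counts of 8 and 5. Sense genes of any level gave 55 below, with level counts of 86 and 69. The highest sense gene per RNA gave 22 below (median 1.31) and 9 pairs higher in the soluble extract. Counts under another minimum or pairing rest on another number of RNAs or pairs by construction, and the causes of other shifts were not tested. Where both RefSeq strands of a shared locus were known, 74 pairs stood on opposite strands (31 above, 12 below) and 12 on the same strand (7 above, 1 below).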

Other observations

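RP24-559D16.1, in the locus of Trdn, which codes for the calcium release protein triadin, had 1.07 FPKM in the pellet and 0.146 FPKM in the soluble extract (log2 fold 4.62), against 4.49 and 11.8 FPKM for Trdn in the same order. RP23-220J15.5, in the locus of Zmynd11, had the largest log2 fold of all 233 antisense RNAs (5.89), with 1.52 FPKM in the pellet and 0.0866 FPKM in the soluble extract. Both were chosen after their values were seen, and their soluble values lie in the range where the spike-ins scattered more.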
